A study of Mus musculus with 13 samples.

Results

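Creb1, its relatives Crem, Atf1, Atf2 and Atf4, and the coactivators Crebbp, Ep300 and Crtc1 were followed in the brains of 13 male mice, of which 1 hemisphere each was analysed. The probe sets were chosen by gene symbol: every probe set whose annotation lists 1 symbol, and that symbol is one of these 8 genes, was kept, which gave 26 of the 45037 probe sets tested. They stand for 7 of the 8 genes, among 18193 genes with such a probe set: 6 for Creb1, 4 for Crem, 5 for Atf2, 3 for Atf4, 4 for Crebbp, 1 for Ep300 and 3 for Crtc1. Atf1 had none, because its probe set also lists the pseudogene Atf1-ps, and it is not described further. Creb1 was picked because 1 of its probe sets, the second brightest, stood out in the comparison of the diets, so the diet differences of these genes are descriptions: no p-value is given for a member, and counts of members past a threshold stand beside the share of all probe sets with nothing read from them.

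All mice were of the inbred strain C3HeB/FeJ and were between 10 and 12 weeks old when feeding began. The 6 creatine-fed mice had pellets supplemented with 1% creatine for 6 months, and the 7 untreated mice had pellets of the same calories without it; no transgene or other agent is named for either group. Biotin-labelled cRNA made from total RNA was hybridised to expression arrays, and each probe set has 1 intensity per mouse in arbitrary units. The whole hemisphere was used, so fewer cells of a type and less RNA per cell cannot be told apart.

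CREB proteins are leucine zipper factors that bind a short DNA motif, the cAMP response element (CRE), as dimers. In neurons, kinases driven by cAMP, calcium or growth factors phosphorylate Creb1, which lets it recruit the acetyltransferases Crebbp (CBP) and Ep300 (p300). Crtc1 joins the same complex after it is dephosphorylated. Targets of the complex include immediate early genes, growth factors and neuropeptides, and the pathway is known for its part in long-lasting synaptic change and memory. Atf2 and Atf4 are more distant family members, Atf4 acting in the responses to amino acid shortage and protein misfolding.

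The motif that links these genes is shown first, in the promoter windows (250 bases before to 50 after the start, from RefSeq, GRCm38.p6) of genes that CREB is known to drive. The full CRE, TGACGTCA, reads the same on both strands; its half-sites are TGACG and, on the other strand, CGTCA, and every full CRE holds both. Of 35 listed target genes 26 had a window, and 7 of the 26 (26.9%) held a full CRE, against 1.79% of all 32851 windows. The genes were listed as known CREB targets, so the higher share is no test. A gene was counted if any of its windows held the letters, while shares of all windows count each window. The 7 are given 5′ to 3′ on the strand of the gene, with the CRE in capitals, followed by the half-sites of the target Ppargc1a and of the member Atf4.
Sst, chr16:23890874-23890903, minus strand, CRE from position -48: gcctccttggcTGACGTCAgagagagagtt
Th, chr7:142900022-142900051, minus strand, CRE from position -45: cagaggggcttTGACGTCAgcctggccttt
Scg2, chr1:79440076-79440105, minus strand, CRE from position -68: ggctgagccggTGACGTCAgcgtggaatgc
Pcsk1, chr13:75089768-75089797, plus strand, CRE from position -78: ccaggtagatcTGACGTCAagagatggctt
Cartpt, chr13:99900777-99900806, minus strand, CRE from position -112: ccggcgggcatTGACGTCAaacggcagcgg
Dusp1, chr17:26508597-26508626, minus strand, CRE from position -143: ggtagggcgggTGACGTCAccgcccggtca
Btg2, chr1:134079303-134079332, minus strand, CRE from position -166: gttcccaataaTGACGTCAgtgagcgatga
Ppargc1a, chr5:51567759-51567785, minus strand, half-site from position -49: gtgccctcccaCGTCActgagctccag
Atf4, chr15:80255161-80255233, plus strand, half-sites from positions -12 and 41: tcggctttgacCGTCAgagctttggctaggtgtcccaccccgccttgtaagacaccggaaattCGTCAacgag
Positions count from the start of the gene. Of the 7 members with a window (all but Crem), 0 held a full CRE and 2, Atf1 and Atf4, held a half-site, which 20.8% of all windows hold. A match is a description of letters and not evidence of binding.

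The arrays resembled each other, with Pearson's r of 2 arrays over all probe sets between 0.985 and 0.997 and array medians from 37 to 43 in creatine-fed and 41 to 45 in untreated mice. Tissue markers fitted a brain hemisphere: 5 of 5 neuron and 5 of 5 astrocyte markers were above the array median on all 13 arrays, and 0 of 4 liver markers were. Summed intensities of 4 oligodendrocyte markers ran from 9814 to 11941 in creatine-fed and 11345 to 14628 in untreated mice (all 4 lower, exact permutation p = 0.00583, adjusted p = 0.0554 over 10 marker lists). These sums mostly follow 1 gene, Mbp, with means of 9139 and 10796 where the mean sums were 10412 and 12282. For 4 brainstem markers, none above the array median on all arrays, the sums ran from 18 to 81 and from 54 to 178 (exact permutation p = 0.0111, adjusted p = 0.0554). The 4 liver markers, equally dim, were also all lower, with sums of 22 to 45 and 36 to 105 (exact permutation p = 0.0274, adjusted p = 0.0913), and 4 blood markers summed to 118 to 235 and 169 to 482 (exact permutation p = 0.0635, adjusted p = 0.127). Sums of 5 microglia markers went the other way, from 1290 to 1450 and from 1193 to 1397 (4 higher and 1 lower; exact permutation p = 0.0519, adjusted p = 0.127). Neuron marker sums ran from 19771 to 21839 and from 20213 to 22898 (exact permutation p = 0.512). The part of these shifts in the values below was not tested.

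The 2 brightest Creb1 probe sets differed between the diets in opposite directions. At the second brightest, the one for which Creb1 was picked, intensities ran from 256 to 296 with a median of 269 in creatine-fed mice and from 341 to 398 with a median of 364 in untreated mice. Every creatine-fed mouse lay below every untreated mouse. The means were 273 ± 13.9 (SD, n = 6) and 371 ± 22.9 (SD, n = 7), a log2 difference of -0.42 ± 0.06 (SE) on the scale of log2(intensity + 16). At 1452901_at, the brightest, intensities ran from 456 to 545 with a median of 513.5 in creatine-fed mice and from 362 to 484 with a median of 436 in untreated mice. Here 5 of 6 creatine-fed mice lay above the highest untreated mouse, and only creatine-fed replicate 6, at 456, lay within the untreated range. The means were 512 ± 32.1 and 432 ± 40.6, a log2 difference of 0.24 ± 0.07 (SE).

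**Figure D1:**
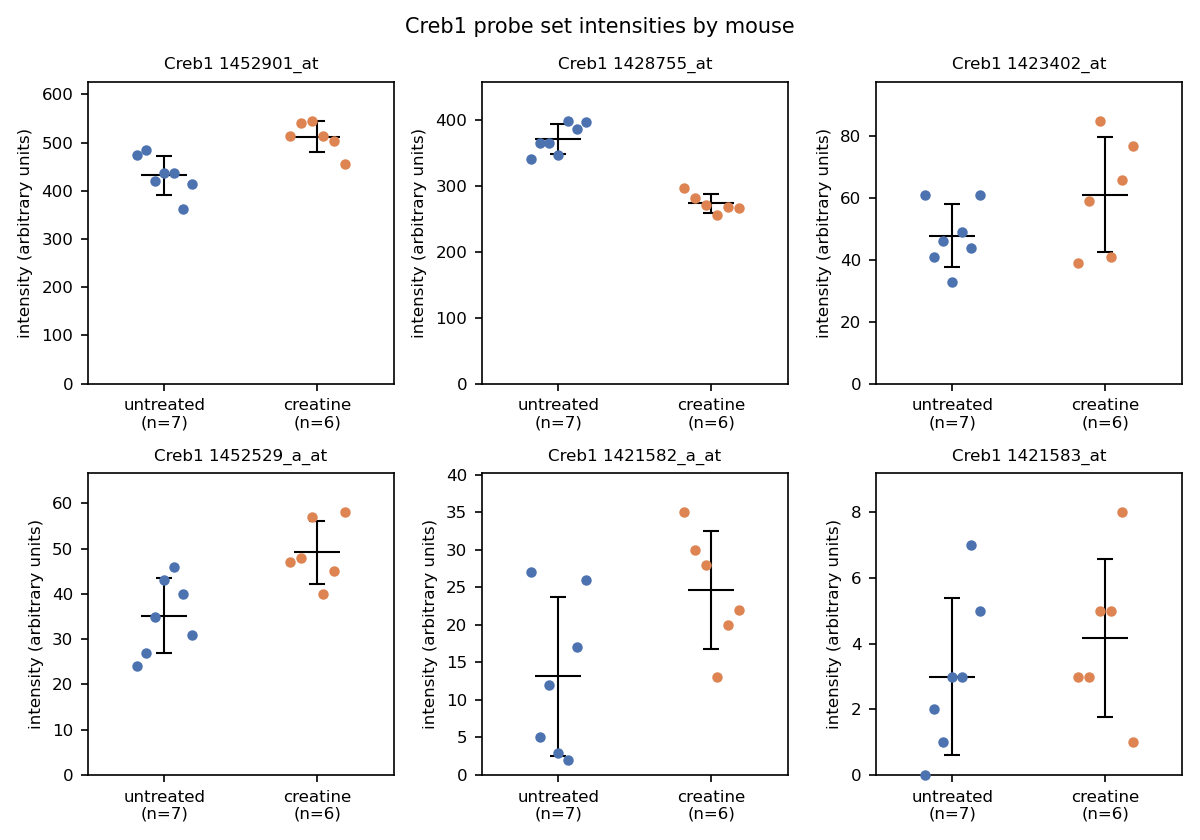
Intensity (arbitrary units, linear axes from 0) of the 6 Creb1 probe sets in each mouse; points are mice, black bars the mean ± SD. In the second panel the 6 creatine-fed mice (256 to 296) lie below the 7 untreated mice (341 to 398), while at the other 5 probe sets the creatine-fed mean is the higher one and the groups overlap.

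Both probe sets are annotated to the same GenBank cDNA. The log2 ratio of the second brightest to the brightest, set to a mean of 0 in untreated mice, ran from -0.76 to -0.53 with a median of -0.68 in creatine-fed mice and from -0.25 to 0.30 in untreated mice. The creatine-fed mice thus lay below all untreated mice in this ratio too, which rests on the values that led to the choice of Creb1 and is no separate support.

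The other 4 Creb1 probe sets were dimmer, and each had a higher mean in creatine-fed mice. At 1423402_at, above the array median on 10 of 13 arrays, intensities ran from 39 to 85 (median 62.5) in creatine-fed and 33 to 61 (median 46) in untreated mice, a log2 difference of 0.25 ± 0.15 (SE). It was 0.14 with the 3'/5' ratio of control probe sets, a measure of RNA quality, as a covariate and 0.17 without creatine-fed replicate 3. At 1452529_a_at, above it on 7 arrays, they ran from 40 to 58 (median 47.5) and 24 to 46 (median 35), a difference of 0.36 ± 0.11. At 1421582_a_at, under the array median on all 13 arrays, they ran from 13 to 35 (median 25) and 2 to 27 (median 12), a difference of 0.54 ± 0.22. The last, 1421583_at, was near the bottom of the scale at 1 to 8 and 0 to 7, with a difference of 0.09 ± 0.10. The groups overlapped at all 4. The differences at 1452529_a_at and 1421582_a_at depended on the offset, at 0.22 and 0.25 with an offset of 50.

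Whether the Creb1 probe sets follow each other from mouse to mouse within a diet was not used in choosing the gene, and was tested. The spread within diets does enter the comparison that led to the choice. Among the Creb1 probe sets it was smallest at the second brightest (SD 0.078 on the log2 scale, against 0.116 at the brightest). With group means removed, Pearson's r over 13 mice was positive in 6 of 15 pairs of probe sets, with a median of -0.02 and a range from -0.46 to 0.43. No pair passed by a 2-sided permutation test within groups: 0 of 15 had an unadjusted p under 0.05 with Pearson's r and 0 with Spearman's rho. The smallest p was 0.114, for 1423402_at with 1421582_a_at (r = 0.43, and 0.66 without creatine-fed replicates 1 and 3, the farthest out; rho = 0.27 with permutation p = 0.33, adjusted p = 0.842 for r and 0.905 for rho). For the 2 brightest probe sets r was -0.28 (permutation p = 0.406, adjusted p = 0.871) and rho -0.18 (permutation p = 0.58, adjusted p = 0.905). Within the creatine-fed mice that r was 0.29 and within the untreated mice -0.54 (exact permutation p = 0.5625 and 0.212), and it was -0.33 over the mice left after dropping replicate 6 of either diet, the mice farthest out. The median r over the 15 pairs was near 0 and took either sign as single mice were left out, from -0.09 to 0.09, turning positive without creatine-fed replicate 6 or untreated replicate 1, 2 or 6.

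Of 30 such values within a single diet group, 3 had an exact permutation p under 0.05, none of them after adjustment over the 30. One of these was the second brightest with 1421582_a_at, at r = 0.93 in creatine-fed mice (exact p = 0.00972, adjusted p = 0.292) and r = -0.02 in untreated mice. The second, 1452901_at with 1421583_at, was negative in untreated mice (r = -0.80, exact p = 0.0306, adjusted p = 0.458). The remaining one, 1423402_at with 1421582_a_at, was positive in untreated mice (r = 0.77, exact p = 0.048, adjusted p = 0.48). A p above the threshold does not show that the probe sets vary independently, and pairs that share a probe set are not independent of each other.

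Over the whole table, 58.6% of 30372 pairs of probe sets that share a gene symbol had a positive r (median 0.08), and 64.5% of the 13880 pairs in which both have a mean intensity above the median probe set (median 0.15). Among the relatives, 6 of 10 Atf2 pairs were positive (median 0.07), 3 of 6 Crem pairs (median -0.04), 4 of 6 Crebbp pairs (median 0.09), 2 of 3 Atf4 pairs (median 0.35) and 2 of 3 Crtc1 pairs (median 0.25). For Creb1 the share was 40.0%. Arrays are scaled as a whole, which pairs of probe sets share. With each array centred on its median, 9 of 15 Creb1 pairs were positive (median 0.06). The shares over the whole table were not computed with centred arrays, so they are no background for that count.

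**Figure D2:**
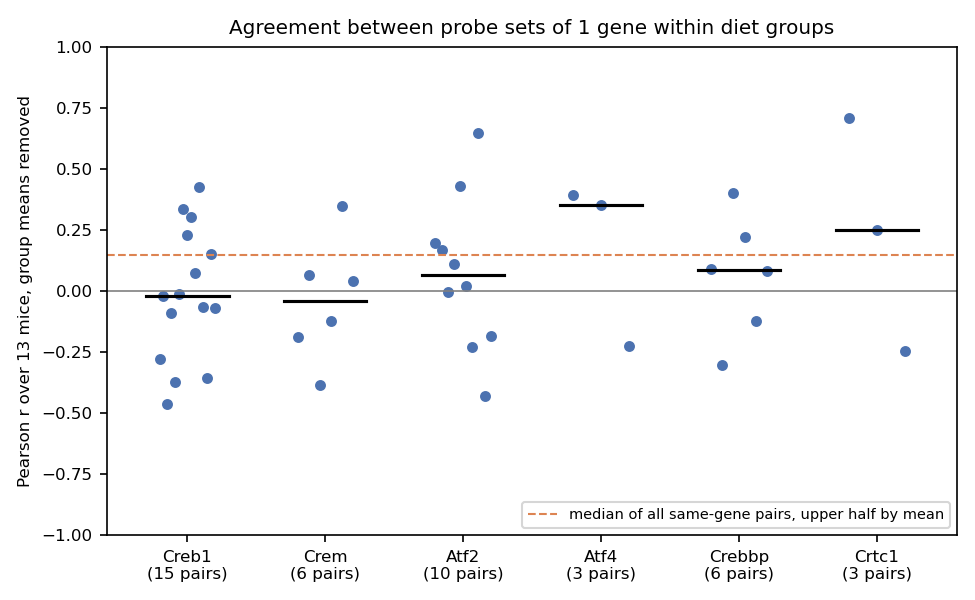
Pearson's r over 13 mice, after removing group means, for every pair of probe sets of 1 gene (points), with the median per gene as a black bar and the median of all same-gene pairs with means above the median probe set (0.15) as a dashed line. Creb1 pairs spread from -0.46 to 0.43 around a median of -0.02, and some include probe sets under the median of every array. Over all same-gene pairs, dim ones included, the median was 0.08.

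The genes whose probe sets were most like 2 of the Creb1 probe sets, among 19677 with 1 symbol and a mean above the median, are given as a description. Over the same 13 mice with group means removed, the second brightest was most like Klhdc2, a ubiquitin ligase subunit (r = 0.86), the corepressor Rcor1 (0.86), Isca1, which assembles iron-sulfur clusters (0.85), Cacul1 (0.84) and the nucleoporin Nup155 (0.84). The brightest, 1452901_at, was most like the RNA-binding Larp4b (r = 0.92), 2610044O15Rik8 (0.88), Rtraf (0.88), the farnesyltransferase subunit Fntb (0.87) and Gfod1 (0.86). Each r is the highest of many and was not tested; the lists held no gene in common.

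Taken across the family, the log2 difference was above 0 at 19 of the 26 probe sets and below 0 at 7. Of all probe sets 42.2% were above 0. With each array centred on its median the members split into 22 and 4. Centring raised every log2 difference by the same amount, and the median over all probe sets was then 0.02. The 42.2% is therefore no background for the centred split. The median log2 difference was 0.06, beside -0.03 over all probe sets tested. By limma, 0 of the 26 had an adjusted p under 0.05 (0.00888% of all probe sets did) and 9 had an unadjusted p under 0.05 (11.9% of all), 7 of these higher and 2 lower, with 4 of the 9 from Creb1. Groups were apart at 1 of the 26, the second brightest of Creb1 (0.560% of all; 0.320% were apart and lower). A size of at least 0.2 was reached by 10 of the 26 (22.4% of all). The comparison of diets is the one that brought Creb1 in, so these counts test nothing and are no support. The same holds for the count of 1 in place of 0 past the adjusted threshold with 3 other settings, 1 of them the fit of the 22535 probe sets with means above the median (0.608% of which passed): it is the probe set for which Creb1 was picked.

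**Figure D3:**
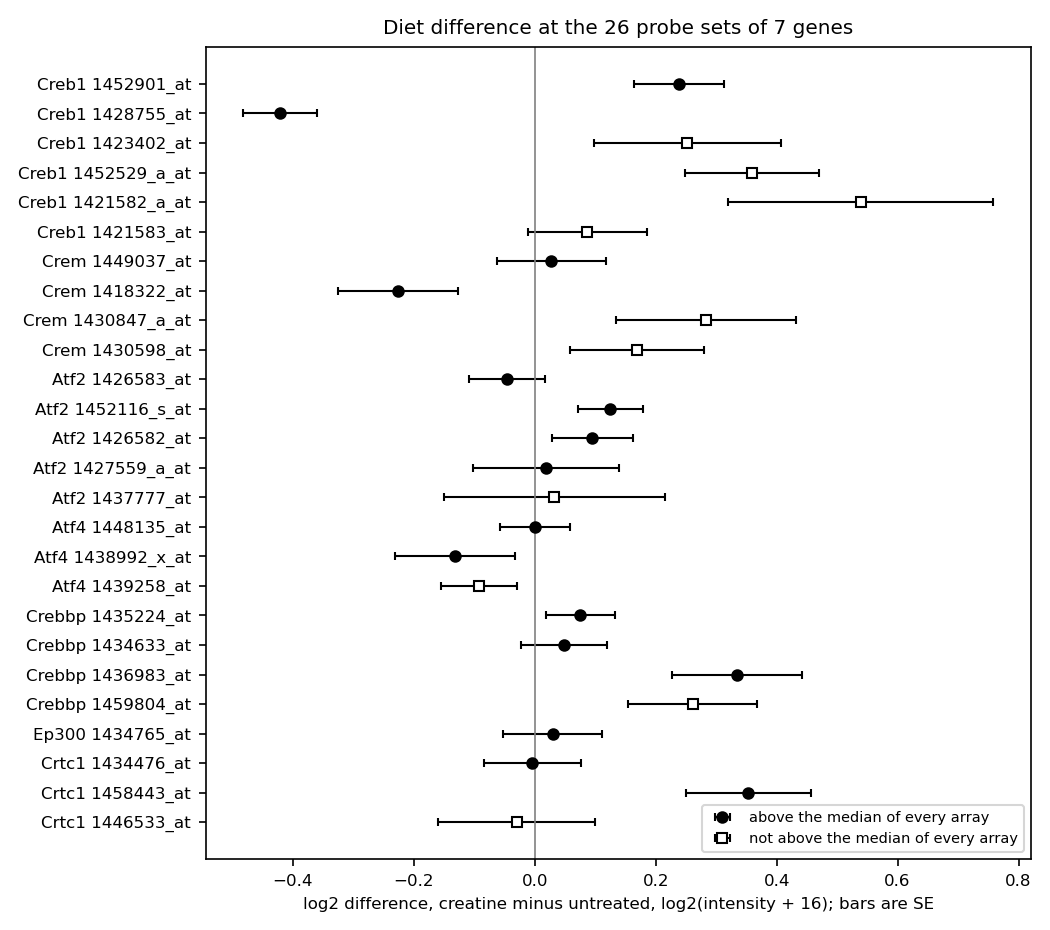
Log2 difference, creatine-fed minus untreated, with SE, at the 26 probe sets of 7 genes; filled circles are above the median of all 13 arrays and open squares are not. Values run from -0.42 at the second brightest Creb1 probe set to 0.54 at Creb1 1421582_a_at, and those of Atf2, Atf4 and Ep300 lie between -0.13 and 0.13.

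Crem makes both activators and, from an internal promoter, the short inducible repressor ICER. Its brighter probe sets gave no common picture. At 1449037_at intensities ran from 66 to 83 with a median of 77 in creatine-fed mice and from 60 to 93 with a median of 78 in untreated mice, so the creatine-fed mice lay inside the untreated range. That is a log2 difference of 0.03 ± 0.09 (SE), which turned to -0.01 when untreated replicate 5 was left out. At 1418322_at they ran from 39 to 58 (median 46.5) and from 45 to 75 (median 60), a difference of -0.23 ± 0.10. The groups overlapped, though no creatine-fed mouse reached the untreated mean. The other 2 Crem probe sets were dim, at 5 to 19 against 0 to 12 at 1430847_a_at (0.28 ± 0.15) and 0 to 8 against 0 to 7 at 1430598_at (0.17 ± 0.11), and were under the array median on all arrays; with an offset of 50 these differences were 0.12 and 0.06.

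Atf2, a factor phosphorylated by stress-activated kinases, has 3 probe sets annotated to 1 cDNA. Of these, 1452116_s_at ran from 1203 to 1303 with a median of 1262 in creatine-fed mice and from 1111 to 1230 with a median of 1131 in untreated mice. There 4 of 6 creatine-fed mice lay above the highest untreated mouse, and the log2 difference was 0.13 ± 0.05 (SE); the _s_ suffix stands for probes shared by several transcripts. At 1426582_at, 5 of 6 creatine-fed mice lay above all untreated mice (702 to 748 against 597 to 685), while creatine-fed replicate 2, at 596, lay below all of them, and the difference was 0.10 ± 0.07. The third and brightest, 1426583_at, ran from 1159 to 1429 and from 1259 to 1394, a difference of -0.05 ± 0.06 that was 0.01 with each array centred on its median. Those 3 together show no single direction. The other Atf2 probe sets, 1427559_a_at (0.02 ± 0.12) and the dim 1437777_at (0.03 ± 0.18), had overlapping groups and no stable sign. Adjusted for the 3'/5' ratio they were -0.05 and -0.04, and with single mice left out they ran from -0.03 to 0.08 and from -0.07 to 0.16.

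Atf4, which is controlled largely through translation of its mRNA, differed little at its brightest probe set. At 1448135_at intensities ran from 645 to 759 with a median of 686 in creatine-fed mice and from 649 to 711 with a median of 699 in untreated mice, with means of 692 ± 40.3 and 691 ± 22.8. At 1438992_x_at they ran from 179 to 260 (median 212.5) and from 197 to 290 (median 223), a log2 difference of -0.13 ± 0.10 (SE), or -0.08 with centred arrays; its _x_ suffix stands for probes that may cross-hybridise. The third, 1439258_at, read 5 or less on every array. Its groups overlapped, as did those of the other two.

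Among the coactivators, all 4 Crebbp probe sets had a higher mean in creatine-fed mice. At 1436983_at intensities ran from 359 to 504 with a median of 472 in creatine-fed mice and from 295 to 473 with a median of 353 in untreated mice. The groups overlapped through creatine-fed replicate 4, at 359, and untreated replicate 1, at 473. The means were 457.5 ± 51.1 and 361 ± 58.8, a log2 difference of 0.33 ± 0.11 (SE). At 1435224_at, the brightest, 4 of 6 creatine-fed mice lay above the untreated range of 614 to 663, within 626 to 737, but the difference was smaller, at 0.08 ± 0.06. At 1434633_at the ranges, 377 to 480 and 361 to 455, largely overlapped (0.05 ± 0.07). The dim 1459804_at ran from 23 to 40 and from 14 to 25, and no creatine-fed mouse fell under the untreated mean (0.26 ± 0.11, or 0.14 with an offset of 50). Crebbp thus had 1 sign but a range of sizes from 0.05 to 0.33.

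Ep300, the paralog of Crebbp, had a single probe set, 1434765_at. Its intensities ran from 321 to 407 with a median of 356 in creatine-fed mice and from 315 to 410 with a median of 341 in untreated mice. The ranges nearly coincided, with a log2 difference of 0.03 ± 0.08 (SE). Adjusted for the 3'/5' ratio it was -0.02, and it was 0.00 without creatine-fed replicate 3.

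Crtc1, the calcium-regulated coactivator, had its largest difference in means at 1 of its 3 probe sets, where the groups overlapped. At 1458443_at intensities ran from 88 to 156 with a median of 122.5 in creatine-fed mice and from 77 to 100 with a median of 91 in untreated mice. There 5 of 6 creatine-fed mice lay above all untreated mice, and creatine-fed replicate 2, at 88, was the exception. The means were 121 ± 22.9 and 90.4 ± 8.66, a log2 difference of 0.35 ± 0.10 (SE). At 1434476_at, the brightest, the means were 478 ± 64.7 and 477 ± 20.9, with creatine-fed mice spread from 410 to 586 around the untreated range of 443 to 513. The log2 difference there was 0.00 ± 0.08, or 0.05 with centred arrays. The dim 1446533_at ran from 20 to 41 and from 24 to 39 (-0.03 ± 0.13, or 0.02 with each array centred on its median).

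**Figure D4:**
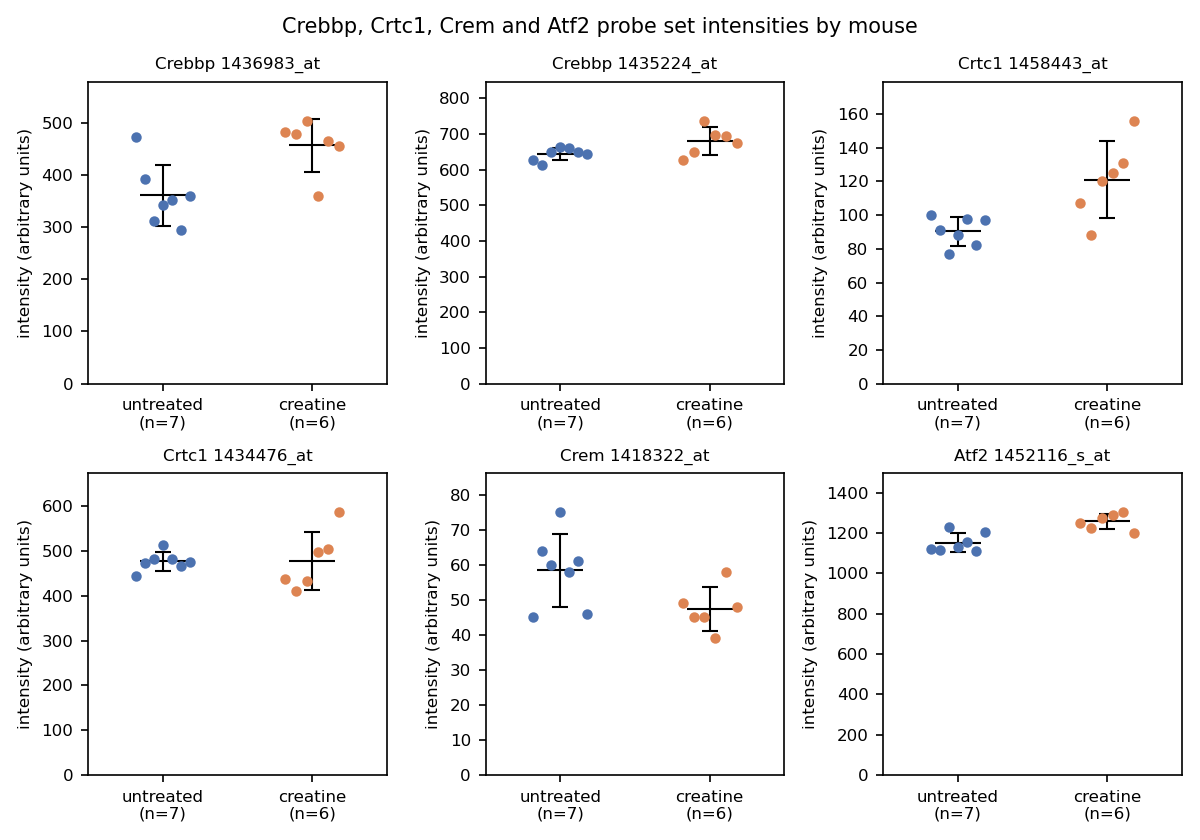
Intensity (arbitrary units, linear axes from 0) in each mouse at 6 probe sets, for Crebbp and Crtc1 the one with the largest difference over its SE and the brightest, for Crem and Atf2 the former; points are mice, black bars the mean ± SD. At Crtc1 1458443_at 5 of 6 creatine-fed mice lie above the untreated range of 77 to 100, at Crtc1 1434476_at the means are 478 and 477, and and at Crem 1418322_at the creatine-fed mice read 39 to 58 against 45 to 75.

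The genes around CREB were taken from lists that do not hold the members. These lists were written with earlier results of these data known, so their counts and medians are descriptions and no separate support. Each gene was taken at its brightest probe set and tested by limma, with Benjamini-Hochberg adjustment over all 45037 probe sets. Of the 35 listed CREB target genes, all measured, 24 had higher and 11 lower means in creatine-fed mice, with a median log2 difference of 0.12 beside -0.03 over all probe sets. None passed, and 6 had an unadjusted p under 0.05, all higher (11.9% of all probe sets). The list holds many activity-induced genes. With each array centred on its median 28 were higher (median 0.17, beside 0.02 over all probe sets). After quantile normalization 27 were (median 0.11, beside -0.004 over all probe sets). Centring raised every log2 difference by the same amount, here and in the lists below.

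Ppargc1a, the coactivator of mitochondrial biogenesis, had the smallest p of the target genes. At 1460336_at it ran from 721 to 916 with a median of 856 in creatine-fed mice and from 565 to 741 with a median of 698 in untreated mice, so only creatine-fed replicate 6 lay within the untreated range. The log2 difference was 0.33 ± 0.08 (SE, adjusted p = 0.161; 0.026 in limma with trend and robust settings). Of its other 4 probe sets 1 had the same sign. Bdnf, a neurotrophin, read 117 ± 10.7 (SD, n = 6) and 97.6 ± 7.70 (SD, n = 7), 4 of 6 creatine-fed mice above all untreated ones and a difference of 0.23 (adjusted p = 0.244); its other probe set had the opposite sign. Gadd45b, a stress-induced gene, read 145 ± 15.9 and 120 ± 9.67 (0.25, adjusted p = 0.253), and 1 of its other 2 probe sets had the same sign. Dusp1, a phosphatase of MAP kinases, read 502 ± 73.8 and 403 ± 52.7 (0.30, adjusted p = 0.29).

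The 7 target genes shown above for their full CRE, chosen by these letters and outside the rule for named genes, did not go 1 way: 3 had higher and 4 lower means, with a median log2 difference of -0.11, 0 passed and 2 had an unadjusted p under 0.05. Dusp1 and Btg2, an antiproliferative early gene (148.5 ± 27.4 and 120 ± 20.8, log2 difference 0.27), were the 2. The neuropeptide gene Sst, for somatostatin, ran from 1184 to 1866 with a median of 1375 in creatine-fed mice and from 970 to 1578 with a median of 1291 in untreated mice (0.13 ± 0.12, SE). Lower means were seen for Th, the rate-limiting enzyme of dopamine synthesis (-0.35), Cartpt (-0.24), the prohormone convertase Pcsk1 (-0.13) and the granin Scg2 (-0.11). For Th the difference was -0.20 without untreated replicate 3, which read 215 where the next was 117, likewise -0.20 without creatine-fed replicate 2, and -0.05 without both. Sst was at 0.05 without creatine-fed replicate 4 and 0.06 without untreated replicate 2, and Cartpt at -0.16 without creatine-fed replicate 3. Adjusted p over all probe sets was 0.29 or more for each of the 7.

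Of 35 listed kinases and phosphatases that act on CREB or upstream of it, 28 were measured here, 17 higher and 11 lower with a median log2 difference of 0.03. With centred arrays 21 were higher (median 0.08), and after quantile normalization 18 were (median 0.04). None passed, and 3 had an unadjusted p under 0.05, 2 higher and 1 lower. Csnk2a1, a catalytic subunit of casein kinase 2, ran from 331 to 520 with a median of 451.5 in creatine-fed mice and from 186 to 384 with a median of 295 in untreated mice. Of the creatine-fed mice 5 of 6 were above all untreated ones, and the difference was 0.60 ± 0.16 (SE, adjusted p = 0.195); 3 of its other 5 probe sets had the same sign. Camk1d, a calmodulin-dependent kinase, differed by 0.23 (adjusted p = 0.225), Camkk2, which phosphorylates kinases of that family, by 0.13 (adjusted p = 0.434) and the protein kinase A catalytic gene Prkaca by -0.17 (adjusted p = 0.373). Of their other probe sets, 1 of 2 for Camk1d, 3 of 3 for Camkk2 and 1 of 1 for Prkaca had the same sign.

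Of 21 other CREB/ATF family members 9 were higher and 12 lower (median -0.02, or 0.03 with centred arrays), 0 passed, and 2 had an unadjusted p under 0.05, both lower. Crebl2 read 357 ± 14.1 and 404 ± 33.7, with the whole creatine-fed group under the untreated mean (-0.17, adjusted p = 0.348). The other Crebl2 probe set had the opposite sign. Creb3l1, a factor activated by cleavage in the Golgi, was dim (18.2 ± 9.66 and 30 ± 8.25, -0.46, adjusted p = 0.361). The repressor Nfil3 differed by 0.23 (adjusted p = 0.599) and Crebzf by -0.08 (adjusted p = 0.633).

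ATF4 targets, measured for 24 of 25 listed genes, were split at 11 higher and 13 lower (median -0.01, or 0.04 with centred arrays). None passed, and 3 had an unadjusted p under 0.05, 1 higher and 2 lower. The mTOR inhibitors Ddit4 (-0.20, adjusted p = 0.38) and Sesn2 (-0.26, adjusted p = 0.4) had lower means, and the amino acid transporter subunit Slc3a2 (0.15, adjusted p = 0.402) and the translation repressor Eif4ebp1 (0.37, adjusted p = 0.558) higher ones. Atf3, Atf5 and Ddit3 stand both here and among the family members.

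Other acetyltransferases and coactivators were even on the scale used here, with 9 of 18 measured genes higher and 9 lower (19 listed, median 0.00). With centred arrays 13 were higher (median 0.05), and after quantile normalization 8 were (median -0.01). None passed, and 0 had an unadjusted p under 0.05 by limma, the only method run on them. Taf4, a subunit of TFIID that CREB contacts, differed by -0.15 (adjusted p = 0.482), Cited1 by 0.26 (adjusted p = 0.502), the Mediator subunit Med1 by 0.12 (adjusted p = 0.503) and Ncoa1 by 0.10 (adjusted p = 0.574).

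**Figure D5:**
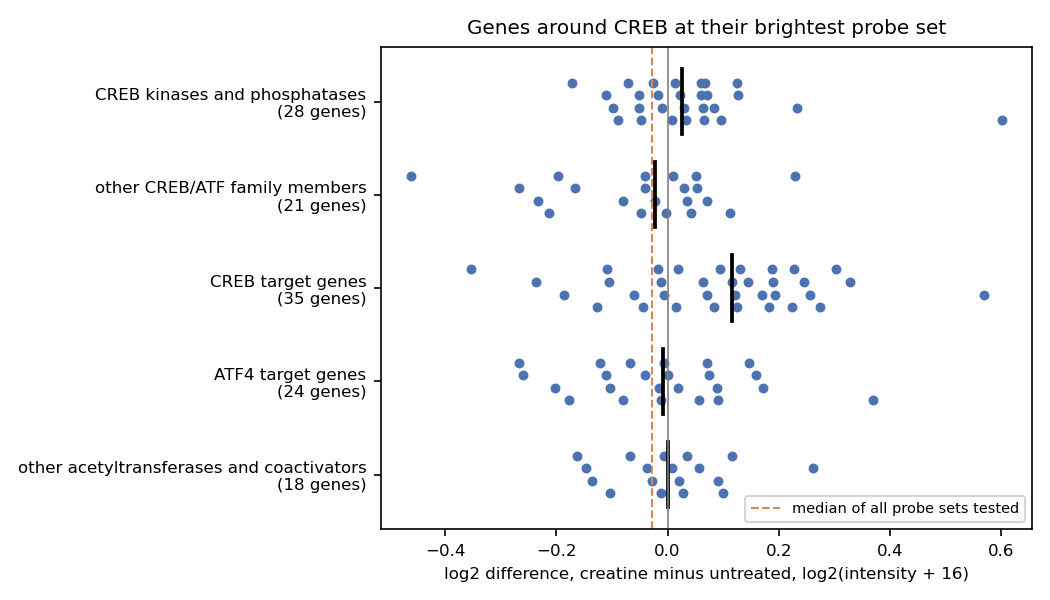
Log2 difference, creatine-fed minus untreated, for each gene of 5 lists at its brightest probe set (points), with list medians as black bars and the median of all probe sets (-0.03) as a dashed line. The median of the CREB target genes is 0.12 and those of the other lists lie between -0.02 and 0.03.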

How the data were processed

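Biotin-labelled cRNA from 13 hemispheres was hybridised to arrays, per the labels. The intensities deposited by the authors are linear whole numbers with zeros, 1 per probe set and array; without the highest and lowest 2% of probe sets their mean was 150.05 on every array, as after scaling to 1 target. The submitters' processing notes name RMA, which returns log2 values, so how these were made is not given in the sources used here. The precision of every value is limited by the number of arrays.

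After removing 64 control probe sets, values entered as log2(intensity + 16). Diets were compared with limma 3.58.1 (lmFit, eBayes; R 4.3.3), 2-sided, without covariates or filter, on 45037 probe sets, with Benjamini-Hochberg adjustment and a threshold of 0.05. Symbols came from the platform annotation, updated through Entrez IDs. Correlations used 100000 permutations within groups, exact enumeration within 1 group, and the marker sums all 1716 splits. Simulated data of 45037 probe sets, for this comparison, gave back 40.0% of the planted changes at log2 0.5 and 84.0% at log2 1.

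Members and lists were chosen with earlier results of these data known. The second brightest Creb1 probe set is 1428755_at. Named genes are all member probe sets, up to 4 genes per list by smallest p (more if past the threshold), and 5 genes most like each of 2 Creb1 probe sets. Alternatives were offsets 1 and 50, quantile normalization, centring, the 22535 probe sets with means above the median, limma with trend and robust, a replicate block, the 3'/5' ratio of control probe sets as a covariate, averaging a gene's probe sets, Spearman's rho, each mouse left out, and creatine-fed replicate 2 with untreated replicate 3 left out. Applying them to the genes with a full CRE, the Creb1 ratio and the most-like genes was decided after seeing the data.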

Additional observations from a re-analysis of the deposited data

Results flagged for a closer look

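Among 104 groups of mice at the probe sets named, 5 held a mouse far from the others of its diet by Dixon's criterion, which flags about 5% of groups by chance. At Crem 1430598_at untreated replicate 2 read 7 where the other untreated mice read 0 or 1. At Atf2 1426582_at creatine-fed replicate 2 read 596, with the next at 702. At Crebbp 1436983_at creatine-fed replicate 4 read 359, with the next at 455. At Ppargc1a 1460336_at creatine-fed replicate 6 read 721, with the next at 845. At Th 1420546_at untreated replicate 3 read 215, with the next at 117.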

How the results depend on the processing

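The count of member probe sets past the threshold was 0 as reported and 1, the second brightest of Creb1, with an offset of 50, among the 22535 probe sets with means above the median, and in limma with trend and robust; it was 0 with the other alternatives run, leaving out each mouse included. Over all probe sets 4 passed as reported, 0 with an offset of 1, 36 with an offset of 50, 2 after quantile normalization, 137 among those 22535, 161 with trend and robust, and 2 with creatine-fed replicate 2 and untreated replicate 3 both dropped. Leaving out each mouse gave 0 to 6: 0 without creatine-fed replicate 3 or 5 or untreated replicate 2, 3, 4, 5 or 6, and 2 without untreated replicate 7. With the replicate block 0 passed over all probe sets and 0 among the members. This block leaves untreated replicate 7 without a partner. Deviations of same-numbered mice correlated at -0.06 to 0.15, and 1 of 6 creatine-fed mice was closest to its own number. Such values cannot decide whether same-numbered mice were handled together. Of the lists, 1 CREB target gene, Ppargc1a, passed with trend and robust, and no list gene did with the other alternatives. The cause of these shifts was not tested. Of the 26 member differences 18 kept their sign in all alternatives that could be fitted, 22 or, for probe sets with lower means, 21. The count of log2 differences above 0 was 22 with centring, which raised all of them, and 19 after quantile normalization. The pairs of Creb1 probe sets past the threshold stayed at 0 in the alternatives run. The smallest dim values, near 0 on the arrays, depended on the offset: at Creb1 1421582_a_at the difference was 1.25 with an offset of 1, against 0.54.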
